A study of Mus musculus with 6 samples.

Results

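By the median over their sites, most CpG-dense stretches of mouse kidney DNA that reduced representation bisulfite sequencing sampled were nearly free of methylation. A small set was almost fully methylated. That set is described here: 461 windows of 1 kb, out of 14534 autosomal windows with at least 15 CpG sites (3.17%) and out of 89813 windows tested in all. The windows were chosen by their measured methylation level. A site counted when at least 10 reads covered it in all 6 libraries, its level was the mean over the 6 libraries of methylated over covering reads, the level of a window was the median over its sites, and windows of 80% or more were kept. Because the levels of all 6 libraries chose them, how high these windows are is a description and carries no test. The rule did not use the differences between groups, but the windows were chosen with earlier results of these data known.

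In this assay MspI cuts DNA at CCGG, only short fragments are sequenced, and bisulfite tells methylated from unmethylated cytosines. DNA came from kidney cortex and outer medulla of male wild-type C57BL/6J mice (age not given in the sources used here). There were 3 groups of 2 libraries. In the first, the left ureter was ligated (unilateral ureter obstruction, UUO, a standard model of kidney fibrosis) for 7 days and the drug that the labels call 5AZA was injected into the abdomen in saline at 1 mg/kg per day. The second had the same obstruction for 7 days with saline injection, and the third was sham-operated without ligation. Sham 1 was the sham for the obstruction experiment, but sham 2 belonged, by its label, to an ischemia/reperfusion study and carries a time of 48 hours in its name. The labels do not say that libraries of a group came from separate mice, so p-values measure the spread between these libraries, which may be technical.

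CpG islands are usually kept free of methylation at the starts of genes. Those that are methylated in normal tissue tend to lie inside genes or at promoters that are used in germ cells and silenced elsewhere, and the maintenance enzyme DNMT1 copies this methylation at each cell division. Azanucleosides, the class that the name 5AZA usually refers to, enter the DNA of dividing cells and trap DNA methyltransferases, so that methylation is diluted as cells divide.

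The sequences below show what such a window looks like at the start of a gene. RefSeq promoter sequences (build GRCm38.p6) were laid on the mm9 positions of the files where the CpG sites seen in the files fell on the CGs of the sequence. Of 31396 autosomal promoters, 15382 held at least 8 CGs, and 9514 could be placed at 1 best position by at least 8 sites. Only 12 of the 461 windows overlapped the 300 bases of a placed promoter, and 11 of them held the start itself. Of these, 5 protein-coding genes whose sites are described next are printed. Mael acts in the piRNA pathway that silences transposons in germ cells, and Hormad1 is a protein of the meiotic chromosome axis. Hsf5 is a heat shock factor family member of testis. Slc25a31 is the ADP/ATP carrier of testis, and Dmrtb1 is a DM-domain factor of spermatogonia. Each line holds the 250 bases before the start on the gene's own strand, from RefSeq GRCm38.p6. Capitals mark the CpGs that passed the minimum of 10 reads in each library. The 300 bases from 250 before to 50 after the start were placed in mm9 at chr1:168168826-168169125 for Mael (minus strand), chr3:95363349-95363648 for Hormad1 (plus strand), chr11:87430416-87430715 for Hsf5 (plus strand), chr3:40512543-40512842 for Slc25a31 (plus strand) and chr4:107356145-107356444 for Dmrtb1 (minus strand). The window at Mael covers 175 of its 300 bases, and the other 4 windows cover all of theirs.
Mael: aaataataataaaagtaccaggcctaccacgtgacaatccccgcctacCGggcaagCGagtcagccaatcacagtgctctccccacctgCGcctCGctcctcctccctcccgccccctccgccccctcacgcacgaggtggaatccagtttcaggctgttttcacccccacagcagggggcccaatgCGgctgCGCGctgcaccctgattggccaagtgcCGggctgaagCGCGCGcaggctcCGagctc
Hormad1: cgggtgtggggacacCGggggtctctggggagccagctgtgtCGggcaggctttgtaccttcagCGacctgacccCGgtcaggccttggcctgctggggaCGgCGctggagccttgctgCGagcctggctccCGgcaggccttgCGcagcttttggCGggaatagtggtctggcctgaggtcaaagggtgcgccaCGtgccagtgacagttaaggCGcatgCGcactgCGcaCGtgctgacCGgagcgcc
Hsf5: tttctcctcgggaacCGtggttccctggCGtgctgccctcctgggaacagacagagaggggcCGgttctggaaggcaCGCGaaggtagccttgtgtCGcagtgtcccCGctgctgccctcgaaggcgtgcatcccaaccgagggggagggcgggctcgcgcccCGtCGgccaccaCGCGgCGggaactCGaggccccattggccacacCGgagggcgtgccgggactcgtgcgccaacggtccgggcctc
Slc25a31: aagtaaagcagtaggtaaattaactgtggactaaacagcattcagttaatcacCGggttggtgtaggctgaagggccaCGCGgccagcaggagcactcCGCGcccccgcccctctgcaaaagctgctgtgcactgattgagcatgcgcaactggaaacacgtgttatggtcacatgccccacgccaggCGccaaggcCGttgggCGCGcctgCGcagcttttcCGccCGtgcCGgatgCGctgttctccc
Dmrtb1: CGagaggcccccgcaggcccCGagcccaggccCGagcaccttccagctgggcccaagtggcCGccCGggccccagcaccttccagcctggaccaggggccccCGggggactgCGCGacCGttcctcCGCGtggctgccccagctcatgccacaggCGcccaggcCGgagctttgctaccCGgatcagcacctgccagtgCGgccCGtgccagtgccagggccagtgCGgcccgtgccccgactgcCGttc

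In these 300 bases of Dmrtb1 25 CpG sites were measured, and their mean level was 92.1% and 93.3% with 5AZA, 94.4% and 94.6% with saline, and 92.9% and 92.1% in sham. Neither 5AZA library reached the saline ones, and the lowest site still averaged 83.2%. At the Mael start 16 sites, 12 of them inside the window, averaged 87.4% and 89.4% with 5AZA, 91.2% and 89.4% with saline, and 90.8% and 84.9% in sham, so the groups met or overlapped. Its sites were less even than those of Dmrtb1, with means over the libraries between 52.7% and 99.3%. At the Slc25a31 start 17 sites averaged 88.5% and 93.0% with 5AZA, 93.8% and 95.7% with saline, and 91.2% and 94.4% in sham. At the Hsf5 start 14 sites averaged 89.8% and 84.0% with 5AZA, 93.2% and 89.3% with saline, and 91.1% and 87.9% in sham. Neither 5AZA library reached the saline ones at Slc25a31, with sham overlapping both groups, and at Hsf5 all groups overlapped.

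Hormad1 has 2 starts in RefSeq that lie 2 bases apart, and its first one is printed. The 16 sites measured there averaged 84.3% and 88.8% with 5AZA, 89.1% and 90.5% with saline, and 91.5% and 86.7% in sham. Its lowest sites were both inside CACGTG, a palindrome that reads the same on both strands and is the E-box bound by basic helix-loop-helix factors of the MYC and USF kind. The CpG 55 bases before the start had 44.1% and 46.9% with 5AZA, 61.3% and 73.1% with saline, and 59.7% and 72.7% in sham, the lowest mean of the 16 sites. The CpG 18 bases before the start had 61.8% and 87.9% with 5AZA, 66.1% and 73.1% with saline, and 68.3% and 54.5% in sham, the second lowest. With as few as 22 reads in a library, single sites are much less precise than windows. The only other CpG measured inside CACGTG at these 12 genes belonged to Zglp1, a GATA-like zinc finger protein of germ cells, and was again the lowest of its 7 sites, at 50% and 47.7% with 5AZA, 68.8% and 57.1% with saline, and 41.3% and 50% in sham.

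Both motifs were chosen after other results of these data had been seen. CACGTG occurred in the 250 bases before the start in 4 of the 12 genes (Mael, Slc25a31, Hormad1 and Zglp1), and in 6.02% of all 32851 promoters of the table and 9.15% of the placed ones, counted over the same length. TTCCCGC or its reverse complement GCGGGAA, the core of E2F sites, occurred in 2 genes (Hsf5 and Hormad1), against 3.82% of all and 8.38% of placed promoters, and did not overlap CACGTG. Among the 79 placed promoters with at least 5 measured sites and a mean level of 50% or more, 8 CpGs in 7 genes lay inside CACGTG, the 3 above among them, and all 8 were among the lowest 2 sites of their promoter. Their median level was 56.1%, against 87.7% for the other sites of the same promoters. CpGs in ACGT outside CACGTG were low as well, with a median of 48.2% over 11 sites, of which 4 were among the lowest 2 of their promoter. A match of letters is no evidence that a factor was bound.

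**Figure D1:**
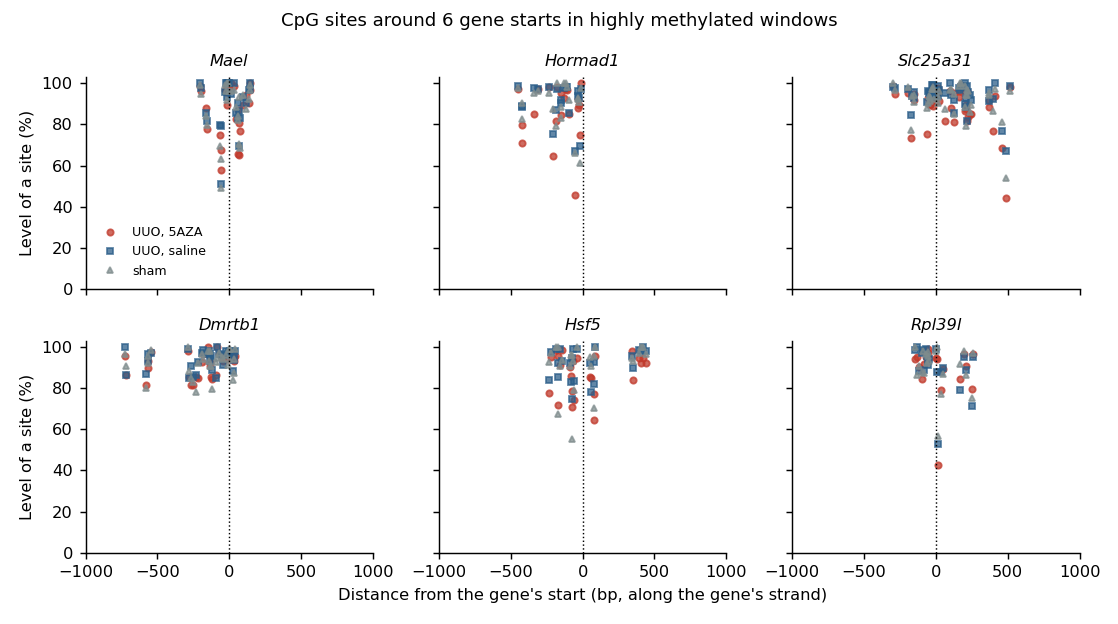
Level of each measured CpG site (y axis, percent, mean of 2 libraries per group) by its distance from the start of 6 genes along the gene's strand (x axis, bp, sites outside the windows included), with 5AZA as circles, saline as squares and sham as triangles; the dotted line is the start. Sites on both sides of the starts are mostly above 80%, and in Hormad1 the lowest circle is the CpG 55 bases before the start.

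The other promoter-bearing windows overlapped promoters of Rpl39l, a testis paralog of a ribosomal protein, Alpk3, a kinase of heart muscle, 1700020D05Rik, and the noncoding RNAs Gm12404 and Gm46055, besides Zglp1 and Sohlh2, a basic helix-loop-helix factor of germ cell differentiation. The Sohlh2 window began 35 bases after the start and shared only 15 bases with the promoter. Its 27 sites had 92.8% and 91.0% with 5AZA, 93.8% and 95.8% with saline, and 94.97% and 92.8% in sham, with the 5AZA libraries below the saline ones. Over the 12 windows the level averaged 84.1% ± 0.39 with 5AZA, 87.5% ± 0.15 with saline and 86.0% ± 0.88 in sham (SD, n = 2 each). The level was lower with 5AZA than with saline in 11 of 12 windows, and in 10 neither 5AZA library reached the saline ones, an order that 88.1% of the 461 windows and 53.5% of all windows tested also showed. The differences ran from -6.70 points at Gm12404 to 1.03 points at Gm46055. None of the 12 passed an adjusted p of 0.05 in the edgeR test across all windows (smallest adjusted p 0.0585, at Sohlh2), and 8 had an unadjusted p under 0.05, against 75.5% of the 461 windows and 23.2% of all windows. By limma on log2 ratios none of the 461 windows passed, and none of all windows did.

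Promoters were the exception in this set. A placed promoter was overlapped by 12 of the 450 windows on chromosomes for which promoter sequences were at hand (2.67%), against 6345 of 12357 CpG-dense windows under 5% (51.3%) and 45 of 514 windows of 20 to under 80% (8.75%). A further 207 windows (46.0%) lay downstream of a placed start by less than the length of that gene in RefSeq, in 191 genes, against 13.6% of the windows under 5% and 36.2% of those between. The median distance to the nearest placed start was 35700 bp, against 571 bp for windows under 5% and 21400 bp for those of 20 to under 80%, and 45 of the 461 windows lay within 5000 bp of one. The remaining 231 windows (51.3%) may lie in genes whose promoter was not placed, so these shares describe the placed genes only. The mean of 5AZA minus saline was -4.12 points in the windows downstream of a placed start, -3.40 points in those with a promoter and -3.95 points in the remaining ones, a difference between places that was not tested.

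The windows were unevenly spread and mostly stood alone. Chromosome 7 held 53 of them (5.22% of its CpG-dense windows), followed by chromosome 4 with 43 and chromosome 5 with 39, and chromosome 16 held the fewest, 7 (1.65%). No other window of the set was adjacent to 425 of them, 15 pairs were adjacent, and 2 runs had 3 windows in a row, at chr7:4981001-4984000 and chr7:53048001-53051000. They held a median of 17 measured sites (15 to 66), 8952 in all, and 31 windows had 30 or more. The window with most sites, 66, was chr5:93371001-93372000, which lay 44482 bp downstream of the start of Shroom3, a regulator of epithelial cell shape.

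Levels within the set reached from just above the threshold to near saturation. By the median over sites, 57 windows had 80 to under 85%, 76 had 85 to under 90%, 224 had 90 to under 95% and 104 had 95% or more, with a median of 93.2% and a maximum of 98.0%. Just inside the threshold were chr15:78503001-78504000 at 80.03%, chr7:13592001-13593000 at 80.15% and chr4:145722001-145723000 at 80.19%, and just outside it were chr7:25319001-25320000 at 79.98%, chr2:25280001-25281000 at 79.54% and chr15:101100001-101101000 at 79.39%. CpG-dense windows between the extremes were few, 523 from 20 to under 80%, whereas 12742 (87.7%) had less than 5%. By the mean over sites, those 12742 windows averaged 13.8% to 15.7% in the 6 libraries. In 158 windows every site averaged 80% or more, and in 382 every site averaged 50% or more. The other 79 held 154 sites under 50%, and 30 of these sites, in 11 windows, were under 20%.

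Covering reads summed over all CpG sites came to 57853745 and 64539660 in the 5AZA libraries, 76730132 and 65733691 in the saline libraries, and 68501854 and 37728517 in sham 1 and sham 2. Sham 2 thus was the shallowest library, with a median of 21 reads per site, against 33 to 48 in the others. The reads of a window, here and below, are summed over its sites, so a read over several sites counts at each of them. Such sums had a median of 963 per library and window of the set (207 to 39830). Taken as independent, they give a 95% Wilson interval of a median of 1.79 points and at most 4.67 points to either side. Coverage counts reads and not molecules, and sites on the same read are not independent. These intervals therefore cover counting error only and may be too narrow.

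The comparison of 5AZA with saline asks what the drug did to methylation in the obstructed kidney. The level of a window in a library is from here on the mean over its sites. Averaged over the 461 windows, it was 87.4% and 86.5% in the 5AZA libraries, 91.0% and 90.9% in the saline libraries, and 90.1% and 89.4% in the sham libraries. Both 5AZA libraries were the lowest of the 6 and did not overlap with either other group. The group means were 87.0% ± 0.59 with 5AZA and 91.0% ± 0.073 with saline (SD, n = 2 each), a difference of -4.02 points, so that the unmethylated share was 13.0% with 5AZA and 9.03% with saline, 1.45 times as large. An exact two-sided permutation test over libraries gave p = 0.33, the smallest that 2 against 2 allow. In bulk kidney, lower methylation in the same cells and a different mix of cells cannot be told apart.

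**Figure D2:**
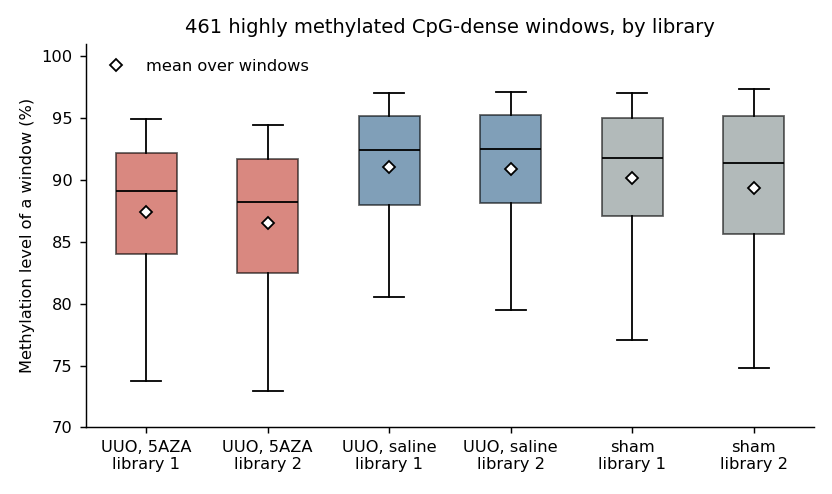
Methylation level of the 461 windows (y axis, percent, mean over the sites of a window) in each library, with boxes from the lower to the upper quartile, the median as a line, whiskers from the 5th to the 95th percentile and the mean as a diamond. The medians are 89.1% and 88.2% with 5AZA, 92.4% and 92.5% with saline, and 91.8% and 91.3% in sham.

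The lower level was spread over the whole set. It was lower with 5AZA than with saline in 456 of 461 windows, and 406 (88.1%) had both 5AZA libraries under both saline libraries, against 53.5% of all windows tested. The opposite order, both 5AZA libraries above, was seen in 0, against 3.82% of all windows. The median difference was -3.82 points (quartiles -5.30 and -2.57, range -11.6 to 4.67), against -2.79 points over all windows. By edgeR's quasi-likelihood test across all windows with Benjamini-Hochberg adjustment, 102 of the 461 (22.1%) fell below an adjusted p of 0.05 with a lower level, against 1.55% of all windows and 2.26% of all autosomal windows of 80% or more. None passed with a higher level, where 0.00445% of all windows did. At an unadjusted p under 0.05 there were 348 (75.5%), against 23.2% of all windows. All 19 autosomes had a lower mean with 5AZA, by -4.52 points on chromosome 10 to -1.55 points on chromosome 16. The lowest of the 6 libraries was 5AZA 2 in 254 windows, 5AZA 1 in 148, sham 2 in 42, sham 1 in 9, and saline 1 and saline 2 in 3 and 5.

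The count of 102 depended on the libraries and the test. It was 45 with only the 4 libraries compared, against 173 of all 89813 windows. Leaving out 1 library leaves no spread within its group, so only mean differences are given for that here. The mean difference was -4.43 points without 5AZA 1, -3.60 without 5AZA 2, -3.96 without saline 1 and -4.07 without saline 2. With limma on log2 ratios 0 of the 461 and 0 of all windows passed.

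**Figure D3:**
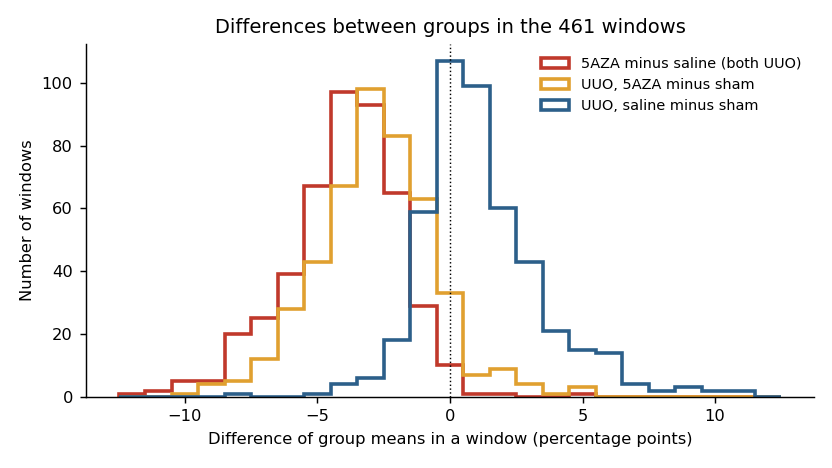
Number of windows (y axis) by the difference of their group means (x axis, percentage points) for 5AZA minus saline, 5AZA minus sham and saline minus sham in the 461 windows; each step is 1 point wide. The median is -3.82 points for 5AZA minus saline, -2.84 points for 5AZA minus sham and 0.821 points for saline minus sham.

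The 102 windows that passed averaged 87.6% and 87.0% with 5AZA, 92.9% and 92.7% with saline, and 91.3% and 90.9% in sham. Their differences with 5AZA ran from -11.6 to -2.28 points with a mean of -5.52, and they had a median of 1170 reads per library against 918 for the other windows of the set. In all 102 the libraries of both groups did not overlap. In 4 of the 5 windows with the largest differences, both sham libraries also lay below both saline libraries, which both comparisons share. At chr11:120223001-120224000, with 18 sites, the level was 74.5% and 73.0% with 5AZA, 86.0% and 84.5% with saline, and 77.1% and 75.2% in sham, a difference of -11.6 points between 5AZA and saline (edgeR adjusted p = 0.0247). At chr9:48604001-48605000, with 17 sites, it was 75.5% and 77.3% with 5AZA, 86.8% and 88.7% with saline, and 82.7% and 82.2% in sham, a difference of -11.4 points (edgeR adjusted p = 0.0314). In both windows the saline libraries were the highest and the 5AZA libraries the lowest, with sham between them and no overlap of the groups.

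At chr10:80883001-80884000 the 5AZA libraries had 82.3% and 76.0%, the saline libraries 91.4% and 87.9% and the sham libraries 91.5% and 85.7%, and 5AZA minus saline was -10.4 points (edgeR adjusted p = 0.0459). Here the saline and sham libraries overlapped, and the spread within each group was larger, at an SD of 4.44 points with 5AZA, 2.48 with saline and 4.09 in sham. At chr4:140864001-140865000 the level was 75.1% and 70.6% with 5AZA, 80.6% and 85.6% with saline, and 75.8% and 75.7% in sham (-10.3 points, edgeR adjusted p = 0.0247). At chr5:32726001-32727000 it was 67.3% and 62.9% with 5AZA, 75.7% and 74.7% with saline, and 63.9% and 66.8% in sham (-10.1 points, edgeR adjusted p = 0.0475). These 5 windows were all that passed with a difference of at least 10 points, out of 7 with such a difference, and in the last one 5AZA and sham overlapped.

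The windows with the smallest p were different: they were highly and evenly methylated and the 5AZA libraries stood apart from both other groups. The leading one, chr4:131456001-131457000, held 45 sites and lay 19443 bp downstream of the start of Gm12992, a gene with no role given here. It had 92.3% and 92.1% with 5AZA, 95.8% and 96.3% with saline, and 95.7% and 95.4% in sham, a difference of -3.85 points (edgeR adjusted p = 0.0204). At chr4:45412001-45413000 the level was 88.9% and 88.2% with 5AZA, 96.9% and 95.7% with saline, and 95.3% and 95.6% in sham (-7.77 points, edgeR adjusted p = 0.0204). At chr13:45662001-45663000 it was 89.6% and 91.9% with 5AZA, 96.5% and 95.9% with saline, and 95.6% and 96.4% in sham (-5.44 points, edgeR adjusted p = 0.0204). In these 3 windows saline and sham differed by 0.471, 0.871 and 0.231 points.

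Genes with a known function lay at the other 2. The window chr4:136852001-136853000 lay 18951 bp downstream of the start of Wnt4, the secreted signal that starts nephron formation in the embryo. Its level was 87.4% and 87.0% with 5AZA, 93.6% and 94.2% with saline, and 90.7% and 93.0% in sham (-6.67 points, edgeR adjusted p = 0.0247). The window chr4:63077001-63078000 lay within the length of Whrn, a scaffold protein of the stereocilia of the inner ear, and had 89.5% and 90.3% with 5AZA, 94.97% and 95.5% with saline, and 94.6% and 94.95% in sham (-5.31 points, edgeR adjusted p = 0.0247). In both the 5AZA libraries were below every other library.

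**Figure D4:**
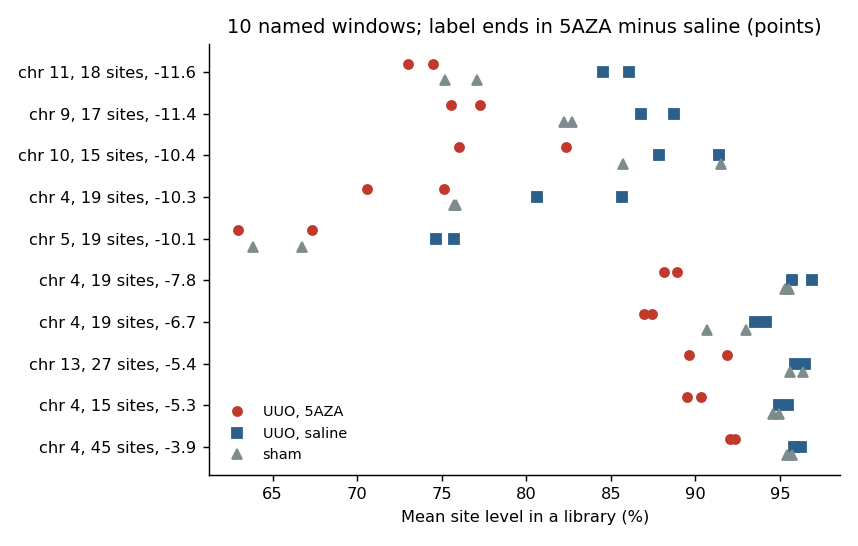
Level of the 10 named windows (x axis, percent, mean over the sites of a window) in each library, with 5AZA as circles, saline as squares and sham as triangles; each window is labelled with its chromosome, its number of sites and 5AZA minus saline in points. In the upper windows, with differences of -10.1 points and beyond, sham mostly lies near 5AZA or between the groups, and in the lower ones sham lies close to saline.

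Of the 5 windows with most CpG sites, 2 passed, the 45-site window above and one in Nfatc2. At the 66 sites of chr5:93371001-93372000 in Shroom3 the level was 94.995% and 93.8% with 5AZA, 94.6% and 95.8% with saline, and 95.2% and 94.0% in sham, with all groups overlapping and a difference of -0.758 points between 5AZA and saline (edgeR adjusted p = 0.432). The 59 sites of chr7:4982001-4983000, the middle of a run of 3, gave 87.1% and 87.4% with 5AZA, 90.8% and 88.8% with saline, and 89.8% and 89.4% in sham (-2.57 points, edgeR adjusted p = 0.349). The 53 sites of chr7:88020001-88021000 differed by -2.68 points (edgeR adjusted p = 0.225). At the 43 sites of chr2:168396001-168397000, within the length of Nfatc2, a calcium-responsive transcription factor, the level was 92.8% and 91.0% with 5AZA, 94.9% and 95.04% with saline, and 94.4% and 94.3% in sham (-3.08 points, edgeR adjusted p = 0.0429). In the second run, chr7:53048001-53051000, the 3 windows differed between 5AZA and saline by -1.19, -0.0275 and -1.91 points and none passed.

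Whether methylated CpG-dense windows answered differently from methylated CpG-poor ones was tested with 37885 autosomal windows of 3 to 5 sites and a level of 80% or more. The mean level of the 461 windows minus that of the CpG-poor ones was -0.559 and -0.227 points in the 5AZA libraries, -0.236 and -0.413 points in the saline libraries, and -0.595 and -0.351 points in the sham libraries, with all groups overlapping. By group it was -0.393 ± 0.23 points with 5AZA and -0.324 ± 0.12 points with saline (SD, n = 2 each), -0.0687 points apart (exact two-sided permutation p = 1.0), so a difference in response was not detectable with these libraries. Its sign turned when windows of 10 to 14 sites stood in for the CpG-poor ones (0.148 points) and when level classes were matched (0.044 points). The fall with 5AZA was -4.02 points in the 461 windows, -4.16 points in 1589 windows of 10 to 14 sites and -3.95 points in those of 3 to 5 sites. The share that passed nevertheless was 22.1%, 10.4% and 1.02%, beside a median of 963, 578 and 152 reads per library. These reads are summed over sites, so they also grow with the number of sites. Within the set, 61 of 318 windows with 15 to 19 sites (19.2%) passed, 27 of 112 with 20 to 29 (24.1%) and 14 of 31 with 30 or more (45.2%), beside 860, 1250 and 1780 reads, whereas their differences were -4.10, -3.76 and -4.06 points.

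The size of the difference went with the level itself. For 5AZA minus saline, windows of 80 to under 85% differed by -5.66 points, windows of 85 to under 90% by -4.69, windows of 90 to under 95% by -3.95 and windows of 95% or more by -2.76. The same classes of CpG-poor windows gave -5.28, -4.76, -4.06 and -2.87 points. As a ratio of unmethylated shares, 5AZA over saline, the order turned round, with 1.30, 1.35, 1.54 and 1.67 from the lowest class to the highest. Since these classes were cut from levels that include the compared libraries, they are a description.

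**Figure D5:**
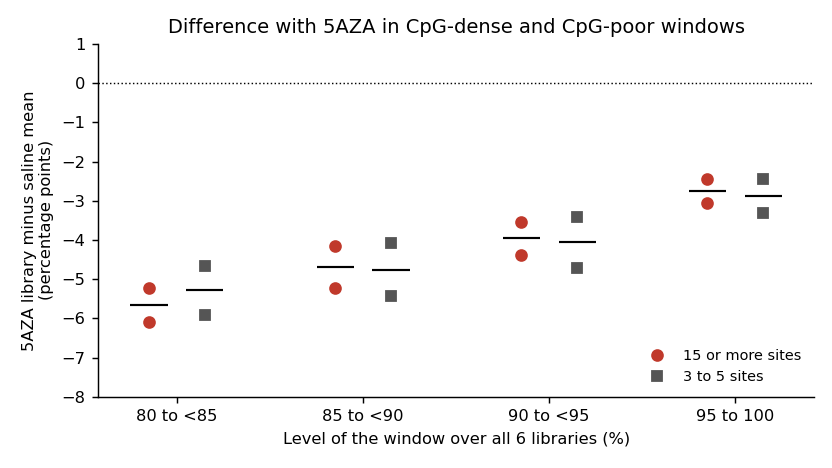
Each 5AZA library minus the saline mean (y axis, percentage points) in windows of 15 or more sites (circles) and of 3 to 5 sites (squares), by the level of the window over all 6 libraries (x axis, percent); lines are the means of both 5AZA libraries. From the lowest to the highest class the means are -5.66, -4.69, -3.95 and -2.76 points for 15 or more sites and -5.28, -4.76, -4.06 and -2.87 points for 3 to 5 sites.

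Among single sites the difference was largest at intermediate levels and smaller towards both ends. The 30 sites under 20% had 4.31% and 5.84% with 5AZA, 7.20% and 10.7% with saline, and 6.88% and 3.49% in sham, a difference of -3.87 points. The 124 sites of 20 to under 50% had 37.0% and 36.9% with 5AZA, 46.7% and 45.1% with saline, and 38.3% and 34.0% in sham, the widest difference of all site classes at -8.95 points. The 2905 sites of 95 to under 99% had 95.8% and 95.4% with 5AZA, 97.5% and 97.6% with saline, and 97.4% and 97.7% in sham, a difference of -1.93 points. Sites with another measured site within 40 bp differed by -4.18 to -3.94 points in the 4 classes of distance, and the 420 sites without a neighbour within 40 bp differed by -2.83 points. Those 420 sites also had a higher level, 93.2% with saline against 90.7% to 91.0% in the other classes. Their ratio of unmethylated shares, 5AZA over saline, was 1.42, against 1.43 to 1.47. Windows whose measured neighbour windows were all at 80% or more (200) differed by -3.57 points, the 39 with a neighbour of 20 to under 80% by -4.80 points, the 11 with a neighbour under 20% by -3.65 points and the 211 with no measured neighbour by -4.31 points.

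Sites that may be ends of MspI fragments need their own account, because the ends were filled in with methylated dCTP and can then read as methylated whatever the DNA held. Candidates were sites covered about as often as both neighbouring sites together, to within 5%. There were 943 such sites (10.5%), with 93.6% and 93.3% with 5AZA, 95.5% and 95.6% with saline, and 95.1% and 94.0% in sham. The other 8009 sites had 86.7% and 85.8% with 5AZA, 90.5% and 90.4% with saline, and 89.5% and 88.8% in sham. The difference between 5AZA and saline was thus -2.13 points at the candidates and -4.19 points at the others. As a ratio of unmethylated shares, 5AZA over saline, it was 1.48 at the candidates, which had the higher level, and 1.44 at the others. The gap between both kinds of site was 7.17 ± 0.43 points with 5AZA and 5.10 ± 0.17 points with saline (SD, n = 2 each), 2.07 points apart, with no overlap of the libraries and an exact two-sided permutation p of 0.33. Without the candidates, 31 of the 461 windows passed, against 213 of all 85437 windows that could then be tested.

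The comparison of saline-treated obstruction with sham asks what obstruction did, and it uses the same saline libraries as the comparison above. The mean over the 461 windows was 91.0% ± 0.073 with saline and 89.8% ± 0.54 in sham (SD, n = 2 each). These means were 1.22 points apart, and 0.835 points against sham 1 alone (exact two-sided permutation p = 0.33 for 2 against 2). The difference was 1.80 points over pooled reads and 0.681 points by the median site of each window. In 187 windows (40.6%) each saline library exceeded each sham library, against 36.3% of all windows, and in 41 each lay below (8.89%), against 8.99%. Neither share was far from the background. The median difference was 0.821 points, against 1.27 points over all windows, and 18 of 19 autosomes had a higher mean with saline. By edgeR 3 windows passed, 2 higher with saline (0.434%, against 0.0445% of all windows) and 1 lower (0.217%, against 0.00557%), and 106 (23.0%) had an unadjusted p under 0.05, against 10.4% of all windows. The mean difference was 1.16 points without saline 1, 1.27 without saline 2, 1.60 without sham 1 and 0.835 without sham 2. The mean difference was largest in windows of 80 to under 85%, at 3.45 points, and smallest in those of 95% or more, at 0.269 points.

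The 2 windows that were higher with saline than in sham were also among those lower with 5AZA. At chr19:57775001-57776000, which lay within the length of Atrnl1, an attractin-like membrane protein, the level was 87.9% and 88.0% with saline and 81.7% and 73.0% in sham, a difference of 10.6 points (edgeR adjusted p = 0.0438). The sham libraries lay far apart there, sham 2 being the lower, and with 5AZA the level was 82.7% and 81.2% (5AZA minus saline -5.98 points, edgeR adjusted p = 0.0314). The other was chr11:120223001-120224000, described above, where saline minus sham was 9.14 points (edgeR adjusted p = 0.0447). The 1 window lower with saline, chr16:36709001-36710000, had 81.4% and 83.1% with saline and 91.1% and 90.04% in sham, a difference of -8.30 points (edgeR adjusted p = 0.0419). With 5AZA it had 86.2% and 82.6%, 2.14 points above saline, which did not pass (edgeR adjusted p = 0.383).

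Further named windows in this comparison did not pass. At chr9:108009001-108010000, within the length of Bsn, a scaffold protein of synapses, the level was 84.1% and 83.9% with saline and 76.2% and 72.9% in sham (9.47 points, edgeR adjusted p = 0.0745), and 77.5% and 75.2% with 5AZA. At chr10:80049001-80050000, 3585 bp downstream of the start of Abhd17a, a depalmitoylating enzyme, it was 88.7% and 88.4% with saline and 83.0% and 73.4% in sham (10.3 points, edgeR adjusted p = 0.129). In both windows the saline libraries were above both sham libraries, and sham 2 was lower than sham 1. The other named windows had differences of 5.39 to 9.88 points and edgeR adjusted p of 0.0765 to 0.142.

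Obstructed kidneys given 5AZA were also set against sham, which differ in both the operation and the drug. The mean over the 461 windows was 87.0% ± 0.59 with 5AZA and 89.8% ± 0.54 in sham (SD, n = 2 each), and their difference was -2.80 points, or -3.18 points against sham 1 alone (exact two-sided permutation p = 0.33 for 2 against 2). Each 5AZA library was under each sham library in 306 windows (66.4%), against 32.2% of all windows, and above in 4 (0.868%), against 13.2%. The median difference was -2.84 points, against -1.07 points over all windows. None of the 461 passed in edgeR, where 0.00111% of all windows passed with a lower level and 0.0% with a higher one. By the same test 227 (49.2%) had an unadjusted p under 0.05, against 14.7% of all windows. With limma none of the 461 passed either. Without 5AZA 1 the mean difference was -3.22 points.

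The windows with the smallest p in that comparison had edgeR adjusted p from 0.0680 to 0.0980, and 4 of the 10 were also named for 5AZA against saline. At chr15:93331001-93332000, within the length of Prickle1, a planar cell polarity protein, the level was 91.0% and 89.0% with 5AZA and 95.8% and 96.9% in sham, with 95.3% and 94.7% with saline. At chr11:46051001-46052000, within the length of Cyfip2, a part of the WAVE complex that drives actin assembly, it was 90.5% and 86.6% with 5AZA and 96.1% and 95.4% in sham, with 96.0% and 94.7% with saline. In both, each 5AZA library was below every other library, with 5AZA minus sham at -6.34 and -7.20 points.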

How the data were processed

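DNA methylation was measured in 6 reduced representation bisulfite libraries. Per the labels' protocols, DNA was cut with MspI, ends were repaired with methylated dCTP among the nucleotides, and inserts of 40 to 120 and of 120 to 220 bp were kept, bisulfite-treated and amplified. Bowtie and mm9 are named in the submitters' processing notes; the methylation caller is not stated there. The deposited files, which have no header, hold for each CpG the counts of covering and methylated reads and the fraction of methylated reads that the authors computed. Positions were read as 0-based and are printed 1-based in mm9.

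Methylated and unmethylated counts of sites with at least 10 reads in all 6 libraries were summed over 1 kb windows with at least 3 such sites and tested with edgeR 4.0.16 under R 4.3.3 (quasi-likelihood functions glmQLFit and glmQLFTest, an intercept per library, common dispersion 0.00632, Benjamini-Hochberg over 89813 windows). Mean levels were compared by exact permutation over libraries. The windows and lists were chosen with earlier results of these data known. The windows named are, per comparison, the 5 largest rises and 5 largest falls in points among those past an adjusted p of 0.05 without overlap of the libraries, filled up to 10 by the smallest p, then the 5 with most sites, those next to the threshold and the longest runs. Windows that overlap a placed promoter, and the motifs, were added after the data were seen.

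Of 9524 RefSeq promoters placed at 1 best position, 10 out of order along the chromosome were dropped. Promoters of 1 autosome, with 11 windows, were not used here. Gene lengths are of GRCm38.p6, and no coordinates were converted. Alternatives were a coverage minimum of 5 or 20, limma 3.58.1 on log2 ratios with 1 added to each count, only the 4 libraries compared, a replicate block, leaving out candidate fragment-end sites (neighbours within 220 bp, each with at least 10% of the coverage), the most covered 0.1% of sites or each library in turn, a minimum difference of 10 points, pooled reads, median levels, and windows chosen on the libraries outside the comparison.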

Additional observations from a re-analysis of the deposited data

How the results depend on the processing

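The mean levels kept their direction in every alternative run, with 5AZA minus saline between -4.43 and -3.60 points, saline minus sham between 0.835 and 1.60 points and 5AZA minus sham between -3.22 and -2.38 points when 1 library was left out. With pooled reads they were -3.68, 1.80 and -1.88 points, and with the median site of each window -4.28, 0.681 and -3.59 points; the cause was not tested. The small difference between CpG-dense and CpG-poor windows, -0.0687 points for 5AZA minus saline, did not: it was 0.148 points with windows of 10 to 14 sites, 0.044 points with matched level classes, and -0.235 to 0.0973 points when 1 library was left out (0.0973 without 5AZA 1, 0.0194 without saline 1); the cause was not tested. For 5AZA against saline 102 windows passed, against 1396 of all 89813 windows. The count became 0 with limma (0 of all windows) and 45 with only the 4 libraries compared (173 of all windows). It was 31 without candidate fragment-end sites (213 of all 85437) and 5 with a difference of at least 10 points. A coverage minimum of 5 gave 102, of which 97 were the same windows, one of 20 gave 82, of which 67 were the same, and leaving out 5AZA 1 gave 74, of which 54 were the same. The count without 5AZA 1 comes from a fit with a single 5AZA library and no spread in that group. It therefore does not show that the calls hold. The calls were lost when 5AZA 2, saline 1 or saline 2 was left out instead, in fits with the same limit. For saline against sham, 3 (45 of all windows) became 0 with limma (0 of all windows) and 0 without candidate fragment-end sites (10 of all windows). It became 1 with a difference of at least 10 points. For 5AZA against sham, the count stayed at 0 with limma, without candidate fragment-end sites and with a difference of at least 10 points. Library numbers are shared by the groups. Over the 461 windows, deviations of same-numbered libraries correlated by 0.00541 between 5AZA and saline, 0.0235 between 5AZA and sham and 0.0667 between saline and sham. With 2 libraries per group, such values cannot show whether the numbers pair libraries. With the replicate block 24 windows passed for 5AZA against saline, all among the 102, against 98 of all windows. For saline against sham 0 passed, against 2 of all windows, and for 5AZA against sham 0, against 0 of all windows. Over the named windows and their 390 alternatives, 300 kept their side of the threshold, 11 passed it anew, 79 no longer passed and 0 turned direction, with edgeR adjusted p of 0.0198 to 0.210, 0.0102 to 0.630 and 0.0350 to 0.584 for the 3 comparisons in the order above. In the main run all 10 windows named for 5AZA against saline passed, 3 of the 10 for saline against sham and 0 for 5AZA against sham. A window that did not pass kept its side by still not passing, so many of the 300 are no sign of a stable call. All 79 losses fell on windows that had passed. Some of these alternatives left a single library in a group. Depth sets how small a difference can be seen. At a median of 963 reads per window and library, summed over sites and taken as independent, counting error alone is 1.79 points to either side.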

Other observations

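On the X chromosome, which was left out of the set, 248 windows had 15 or more sites and 3 of them a level of 80% or more. Those 3 averaged 88.8% and 89.1% with 5AZA, 92.1% and 93.0% with saline, and 92.1% and 91.1% in sham. Sham 2 lay at both ends of the range within the windows. At the 30 sites under 20% it had 3.49%, against 6.88% in sham 1, and at the 255 sites of 99% or more it had 99.8%, against 99.4% in sham 1. These gaps were not tested.

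When the windows were chosen on the libraries outside a comparison, most of them were the same. For 5AZA against saline 466 windows were chosen on sham alone, and 453 of these were among the 461; for saline against sham 432 were chosen on 5AZA alone, and 429 were among the 461.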
